A study of Mus musculus with 6 samples.

Results

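The genes described here are 10 members of the tumour necrosis factor (TNF) superfamily of ligands and receptors, chosen by name from the 24346 gene symbols of the deposited tables. These members and the gene lists used below were chosen with earlier results of these data known. The ligand genes were Tnf, Tnfsf9, Tnfsf10, Tnfsf11 and Tnfsf15, and the receptor genes were Tnfrsf1a, Tnfrsf1b, Tnfrsf11b, Tnfrsf12a and Fas. The study set prostate luminal cells, the secretory cells that line the glands, of transgenic mice against those of wild-type (WT) mice. The transgenic mice, called CSF1 here as in the genotype label, carried mouse Csf1 behind the rat probasin promoter. In the prostate that promoter works mainly in luminal cells. Csf1 encodes a growth factor of macrophages. Both groups were C57BL/6 and 4 months old, the WT animals were littermates of the transgenic ones, and luminal cells were collected from both by fluorescence-activated sorting. Each group had 3 RNA sequencing libraries, numbered 3, 5 and 8 in both. The numbers are the first ones in the sample titles, where their meaning is not explained, and serve here as replicate numbers. The labels name no animal for any library. The p-values therefore measure only the spread between these libraries, which may be technical.

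Ligands of this family are mostly membrane proteins that act as trimers, and many are also cut from the surface by proteases. Receptors with a death domain, such as those encoded by Tnfrsf1a and Fas, can recruit caspase-8. Receptors without one, such as those of Tnfrsf1b and Tnfrsf12a, bind TRAF adaptor proteins and feed NF-kB signalling. Some members, such as the soluble protein encoded by Tnfrsf11b, bind ligand and pass on no signal.

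Values are FPKM, fragment counts scaled to transcript length and to the mapped fragments of the library by the authors, summed over the transcripts of a gene. A log2 change is the CSF1 mean minus the WT mean of log2(FPKM + 1), given with its standard error (SE). This scale understates the change of genes with low values. Adjusted p-values are from limma with Benjamini-Hochberg adjustment over 10951 tested genes, those whose FPKM averaged 1 or more across the 6 libraries.

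The 250 bases before the start of 8 members were matched in a RefSeq promoter table (GRCm38.p6). Those of 4 members are shown because their genes were higher in CSF1 libraries and each held 1 or more of 4 motifs that were searched on both strands. Capitals mark every motif match, no match overlapped another, and each sequence reads 5′ to 3′ on the strand of its gene. The windows are chr17:35202008-35202257 (minus strand) for Tnf, chr6:125349473-125349722 (plus) for Tnfrsf1a, chr4:145246871-145247120 (minus) for Tnfrsf1b and chr19:34290409-34290658 (plus) for Fas.
Tnf: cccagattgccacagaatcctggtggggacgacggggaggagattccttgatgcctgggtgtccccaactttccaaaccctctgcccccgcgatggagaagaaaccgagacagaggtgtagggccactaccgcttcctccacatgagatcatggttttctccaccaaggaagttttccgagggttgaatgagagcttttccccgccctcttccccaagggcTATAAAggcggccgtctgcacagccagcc
Tnfrsf1a: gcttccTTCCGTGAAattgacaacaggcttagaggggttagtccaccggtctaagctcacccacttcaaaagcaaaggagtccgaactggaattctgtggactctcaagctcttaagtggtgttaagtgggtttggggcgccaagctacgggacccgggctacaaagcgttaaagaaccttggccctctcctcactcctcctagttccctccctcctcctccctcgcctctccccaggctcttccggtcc
Tnfrsf1b: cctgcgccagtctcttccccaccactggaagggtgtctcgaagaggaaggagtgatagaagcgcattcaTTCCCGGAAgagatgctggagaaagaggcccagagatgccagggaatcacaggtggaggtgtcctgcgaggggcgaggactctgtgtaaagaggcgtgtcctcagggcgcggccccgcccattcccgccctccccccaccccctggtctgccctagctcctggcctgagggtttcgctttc
Fas: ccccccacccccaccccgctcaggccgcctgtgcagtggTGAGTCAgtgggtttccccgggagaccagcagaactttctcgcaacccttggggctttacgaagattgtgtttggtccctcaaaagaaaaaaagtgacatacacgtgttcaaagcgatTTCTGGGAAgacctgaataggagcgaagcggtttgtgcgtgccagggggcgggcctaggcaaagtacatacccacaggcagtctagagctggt
The Tnf window held TATAAA, the TATA box, 29 to 24 bases before the start. Tnfsf11 held it only on the opposite strand, as TTTATA 32 to 27 bases before the start. So 2 of the 8 members had it on either strand, against 12.4% of 32851 promoter windows of this length. The motif TTCNNNGAA, which STAT factors can bind, stood before Tnfrsf1a, Tnfrsf1b and Fas, 3 of the 8 members, against 7.02% of all windows. Fas also held TGANTCA, an AP-1 motif that was present in 6.75% of all windows. The NF-kB consensus was found in 3.9% of all windows and in 0 of the 8 members' windows. Such matches describe letters in a short window and show no binding. Tnfsf9 and Tnfrsf11b were not matched.

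Loci of the members are given in GRCm38 from the deposited transcript tables. Of the ligand genes, Tnf (chr17:35199367-35202007, minus strand) and Tnfsf9 (chr17:57105385-57107757, plus) share a chromosome with the receptor gene Tnfrsf12a (chr17:23675445-23677449, minus). Tnfsf15 (chr4:63724603-63745113, minus) and Tnfrsf1b (chr4:145212368-145246870, minus) share another. The others are Tnfsf10 (chr3:27317077-27339665, plus), Tnfsf11 (chr14:78277446-78308043, minus), Tnfrsf1a (chr6:125349723-125362483, plus), Tnfrsf11b (chr15:54250619-54278484, minus) and Fas (chr19:34290659-34327770, plus).

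The Csf1 gene, checked first, was at 1082, 1326 and 1678 FPKM in CSF1 libraries 3, 5 and 8, against 1.54, 2.25 and 3.98 FPKM in WT libraries 3, 5 and 8 (limma adjusted p = 7.84e-07). The tables give no fragment totals. The deposited coverage divided by FPKM, a measure of relative depth, was 4.17 to 5.01 in CSF1 libraries and 2.72 to 3.50 in WT libraries. Luminal markers were detected in all libraries, and Krt8 was at 1408 to 2334 FPKM in CSF1 and at 1050 to 1721 FPKM in WT. Among all tested genes 24.9% were called higher and 7.47% lower in CSF1, against which the marker counts are to be read. Of 12 luminal markers, 4 rose, 1 fell and 7 did not pass. Of 16 macrophage markers, 15 were tested, of which 14 rose and 1 (Mertk) fell, and their summed level was 743 to 2948 FPKM in CSF1 and 31.1 to 122 FPKM in WT. None of the 16 was at 0 in every library of a group. All 8 tested fibroblast and smooth muscle markers rose (summed level of 10 markers 506 to 744 FPKM in CSF1 and 97.8 to 114 in WT), as did all 7 tested basal markers (539 to 852 and 44.8 to 66.5 FPKM, over 8) and all 3 tested endothelial markers (12.1 to 15.3 and 1.14 to 2.63 FPKM, over 7). Of 6 tested lymphocyte markers, 5 rose (14.4 to 47.4 FPKM in CSF1 and 1.31 to 2.59 in WT, over 14). Many of these markers had WT means under 1 FPKM and were tested only through their CSF1 levels, which left little room for a fall: 8 of 15 macrophage, 5 of 8 fibroblast and smooth muscle, 2 of 7 basal, 3 of 3 endothelial and 6 of 6 lymphocyte markers. The 1 tested neutrophil marker, S100a8, did not pass (limma adjusted p = 0.0872), and the 8 neutrophil markers in the tables summed to 1.40 to 32.3 FPKM in CSF1 and to at most 0.133 FPKM in WT. Of these 8, Ngp, Mpo and Elane were listed at 0 in every CSF1 library and S100a8, Ngp, Camp, Retnlg, Cxcr2 and Mpo in every WT library.

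Of the 10 TNF superfamily members, 7 had a mean of at least 1 FPKM and were tested, and each of the 7 rose in CSF1 libraries. Among all tested genes 32.4% were called, 24.9% as higher and 7.47% as lower in CSF1, with a median log2 change of 0.17. Tnfsf9 and Tnfrsf11b reached the tested set through their CSF1 levels alone, since their WT means were under 1 FPKM, so the count over the 7 is a description. Tnfsf10, Tnfsf11 and Tnfsf15 were below the limit. CSF1 lay above WT with no overlap in the 7 tested members, and in Tnfsf10. Among all tested genes, groups were free of overlap in 47.7% and CSF1 lay above in 34.7%. The libraries hold sorted cells in bulk, so a change in the number of cells of a type and a change in RNA per cell cannot be told apart.

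**Figure D1:**
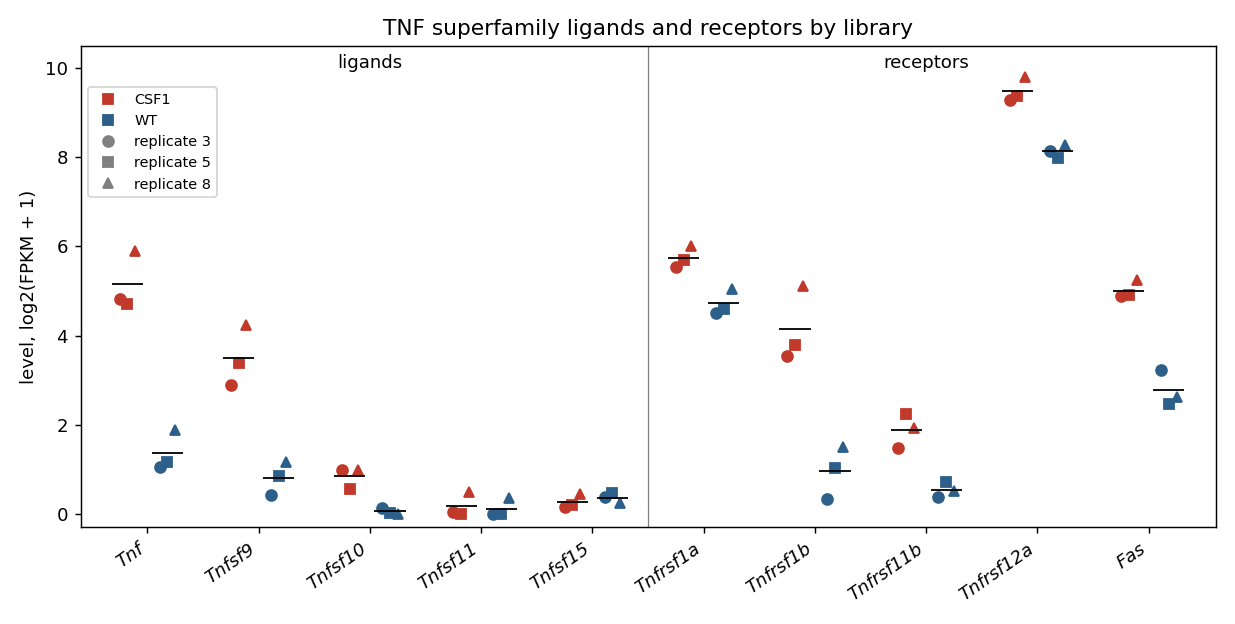
Level of each member in each library, as log2(FPKM + 1); ligands are on the left and receptors on the right. Points are libraries (CSF1 red, WT blue, shape by replicate number) and bars are group means; CSF1 points lie above all WT points in 8 of the 10 genes, and Tnfsf11 and Tnfsf15 overlap.

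Among the ligands, Tnf and Tnfsf9 rose, Tnfsf10 was above WT at under 1 FPKM, and Tnfsf11 and Tnfsf15 stayed under 0.4 FPKM with overlapping groups. Tnf, the founding cytokine of the family, was at 27.4, 25.2 and 58.9 FPKM in CSF1 libraries 3, 5 and 8, against 1.07, 1.25 and 2.71 FPKM in WT libraries 3, 5 and 8. The lowest CSF1 library was well above the highest WT library, and replicate 8 was the highest in both groups. Its mean was 37.2 ± 18.8 FPKM in CSF1 and 1.67 ± 0.899 FPKM in WT (SD, n = 3 each), a log2 change of 3.78 ± 0.35 (limma adjusted p = 0.000117). The tables list another Tnf transcript, NM_001278601, which was at 0 in every library, so all Tnf FPKM stood on NM_013693.

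Tnfsf9, whose protein costimulates T cells through the receptor encoded by Tnfrsf9, was at 6.37, 9.39 and 17.7 FPKM in CSF1 libraries 3, 5 and 8, against 0.339, 0.815 and 1.23 FPKM in WT libraries 3, 5 and 8. The groups did not overlap, and replicate 8 was again the highest in both. The log2 change was 2.68 ± 0.35 (limma adjusted p = 0.000669). An exon of Tnfsf9 overlaps by 192 bases an exon of the opposite-strand gene Gm11110, and the library kits named in the labels do not mark strand, so reads of the shared stretch cannot be assigned.

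Tnfsf10 encodes TRAIL, a ligand of death receptors. It was at 0.983, 0.464 and 0.977 FPKM in CSF1 libraries 3, 5 and 8, against 0.0993, 0.0181 and 0 FPKM in WT libraries 3, 5 and 8. The lowest lower bound of the deposited Cufflinks intervals in CSF1 was 0.376 FPKM, above the highest upper bound in WT, 0.151 FPKM. Each interval belongs to a single library and does not measure the spread between libraries. In WT library 8 both bounds were 0. With no filter on low values the log2 change of Tnfsf10 was 0.79 ± 0.13 (limma adjusted p = 0.012).

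Tnfsf11 encodes RANKL, a ligand that acts on osteoclast precursors, lymph node development and mammary epithelium. It was listed at 0.0237, 0 and 0.396 FPKM in CSF1 libraries 3, 5 and 8, and at 0, 0 and 0.273 FPKM in WT libraries 3, 5 and 8, so replicate 8 held nearly all of the signal in both groups. Tnfsf15 encodes TL1A, a ligand that costimulates T cells. It was at 0.115, 0.146 and 0.371 FPKM in CSF1 and at 0.296, 0.376 and 0.190 FPKM in WT. With no filter on low values, the log2 changes were 0.06 ± 0.16 for Tnfsf11 and -0.09 ± 0.10 for Tnfsf15, and neither passed (limma adjusted p = 0.848 and 0.571).

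All 5 receptors rose, by amounts that ranged from 1.03 to 3.19 in log2 units. Tnfrsf12a, which encodes Fn14, the receptor of the ligand TWEAK (Tnfsf12), had the highest level of the 10 in every library. It was at 625, 667 and 895 FPKM in CSF1 libraries 3, 5 and 8, against 284, 253 and 309 FPKM in WT libraries 3, 5 and 8. The groups were far apart relative to their spread, with means of 729 ± 145 FPKM in CSF1 and 282 ± 28.1 FPKM in WT (SD, n = 3 each). The log2 change was 1.36 ± 0.17 (limma adjusted p = 0.000501). Of its listed transcripts, NM_013749 carried all of the signal and NM_001161746 was at 0 in every library.

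Tnfrsf1a and Tnfrsf1b encode the receptors of TNF. The product of Tnfrsf1a is found on most cells and carries a death domain. Tnfrsf1a was at 45.7, 50.8 and 63.7 FPKM in CSF1 libraries 3, 5 and 8, against 21.7, 23.3 and 32.2 FPKM in WT libraries 3, 5 and 8 (log2 change 1.03 ± 0.19, limma adjusted p = 0.00385). Replicate order was the same in both groups, and the groups did not overlap. Without both libraries numbered 5, Tnfrsf1a did not pass (limma adjusted p = 0.0508, against a range of 0.00118 to 0.0508 over all alternatives). Tnfrsf1b, whose product is best known on immune and endothelial cells, was at 10.7, 12.9 and 33.4 FPKM in CSF1, against 0.267, 1.03 and 1.83 FPKM in WT. CSF1 replicate 8 stood well above the other CSF1 libraries. The log2 change was 3.19 ± 0.43 (limma adjusted p = 0.000831). The mean was 18.2-fold higher in CSF1, 11.3-fold without CSF1 replicate 8 and 29.2-fold without WT replicate 8.

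Fas, a death receptor that triggers apoptosis on binding Fas ligand, was at 28.5, 28.9 and 36.9 FPKM in CSF1 libraries 3, 5 and 8, against 8.42, 4.51 and 5.12 FPKM in WT libraries 3, 5 and 8. Here the highest WT library was replicate 3, and still less than any CSF1 library. The log2 change was 2.24 ± 0.22 (limma adjusted p = 0.000175). All of this stood on NM_007987, and the shorter listed transcript NM_001146708 was at 0 in every library.

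Tnfrsf11b encodes osteoprotegerin, the soluble decoy receptor of RANKL, which also binds TRAIL. It was at 1.78, 3.73 and 2.82 FPKM in CSF1 libraries 3, 5 and 8, against 0.301, 0.647 and 0.424 FPKM in WT libraries 3, 5 and 8. Replicate 5 was the highest in both groups, unlike for the TNF receptors. The log2 change was 1.35 ± 0.25 (limma adjusted p = 0.00418), and with quantile normalization it was 0.75 and did not pass (limma adjusted p = 0.0564, against a range of 0.00286 to 0.0564 over all alternatives).

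FPKM is per transcript length, so levels can be set side by side. In CSF1 libraries the order of mean FPKM was Tnfrsf12a, Tnfrsf1a, Tnf, Fas, Tnfrsf1b, Tnfsf9, Tnfrsf11b, Tnfsf10, Tnfsf15 and Tnfsf11. Ranges of neighbours overlapped from Tnfrsf1a through Tnfsf9 and between the last pair, while Tnfrsf12a, Tnfrsf11b and Tnfsf10 were each separate from the next gene on both sides. In WT libraries the order was Tnfrsf12a, Tnfrsf1a, Fas, Tnf, Tnfrsf1b, Tnfsf9, Tnfrsf11b, Tnfsf15, Tnfsf11 and Tnfsf10. There Tnfrsf12a, Tnfrsf1a and Fas were separated from their neighbours, and the ranges of neighbours overlapped from Tnf downwards.

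Ratios within a library were compared for 3 pairs by exact two-sided permutation tests, whose smallest p with 3 libraries against 3 is 0.1. The log2 ratio of Tnfrsf1b to Tnfrsf1a, on FPKM + 1, was -1.996, -1.90 and -0.91 in CSF1 libraries 3, 5 and 8, against -4.17, -3.58 and -3.55 in WT libraries 3, 5 and 8. The groups did not overlap and their means differed by 2.16 (exact permutation p = 0.1). The log2 ratio of Tnfsf11 to its decoy receptor gene Tnfrsf11b was -1.44, -2.24 and -1.45 in CSF1, against -0.38, -0.72 and -0.16 in WT, a difference of -1.29 (exact permutation p = 0.1). This ratio mostly followed Tnfrsf11b, as Tnfsf11 was near 0 in both groups. These tests did not use the replicate numbers. With libraries paired by number, an exact sign-change test gave p = 0.25 for Tnfrsf1b to Tnfrsf1a and for Tnfsf11 to Tnfrsf11b. That is the smallest p that 3 pairs allow. The log2 ratio of Tnfsf10 to Tnfrsf10b, the gene of the mouse TRAIL death receptor, was -0.10, -0.22 and -0.58 in CSF1, against -0.45, -0.16 and -0.82 in WT. These overlapped and differed by 0.18 (exact permutation p = 0.6). The size of these differences, and for Tnfsf11 to Tnfrsf11b and Tnfsf10 to Tnfrsf10b the separation of the groups, depended on the pseudocount of 1. With 0.1 in its place the difference was 3.11 for Tnfrsf1b to Tnfrsf1a, still without overlap (exact permutation p = 0.1). It was -2.12 for Tnfsf11 to Tnfrsf11b, where the groups then overlapped (exact permutation p = 0.2), and 1.36 for Tnfsf10 to Tnfrsf10b, where CSF1 then lay above WT without overlap (exact permutation p = 0.1).

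**Figure D2:**
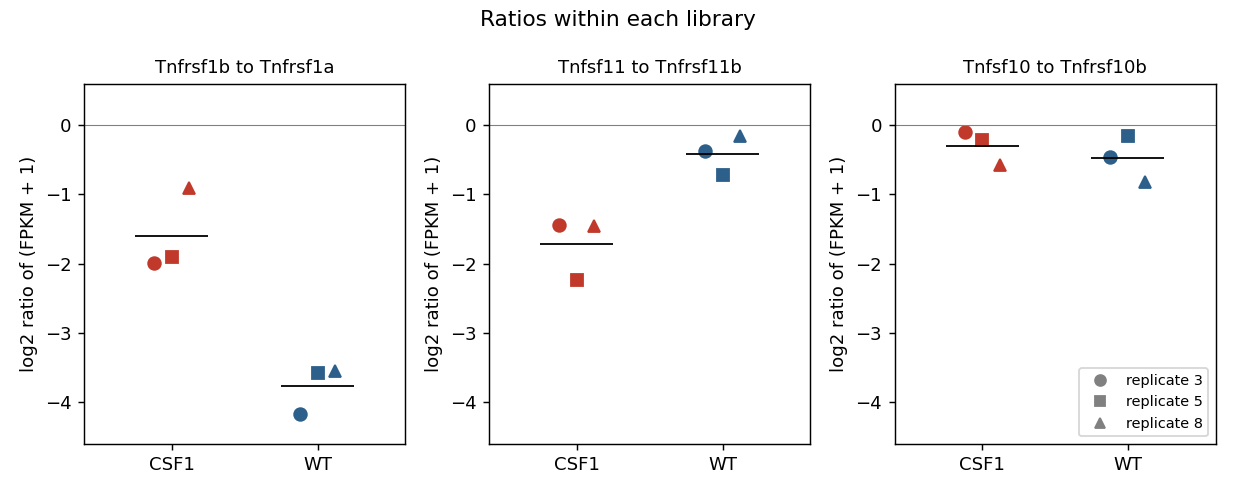
Log2 ratio of FPKM + 1 in each library for 3 pairs of genes, with CSF1 left of WT and bars at group means. CSF1 points lie above WT for Tnfrsf1b to Tnfrsf1a, below WT for Tnfsf11 to Tnfrsf11b, and overlap WT for Tnfsf10 to Tnfrsf10b; with a pseudocount of 0.1 the second pair overlaps and the third does not.

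Macrophages produce TNF and carry the product of Tnfrsf1b, and the members were set beside macrophage markers. Basal, fibroblast and smooth muscle, endothelial and lymphocyte markers also rose, and ratios to those lists were not taken. CSF1 replicate 8 had the highest level of 8 of the 10 members among CSF1 libraries and of 13 of the 16 macrophage markers. WT replicate 8 had the highest level of 6 members and of 12 markers among WT libraries. The share of all tested genes that were highest in replicate 8 was not counted. The 8 members include Tnfsf11 and Tnfsf15, at no more than 0.396 FPKM. In CSF1 libraries 3, 5 and 8, summed basal markers were at 554, 539 and 852 FPKM and lymphocyte markers at 15.3, 14.4 and 47.4 FPKM. Fibroblast and smooth muscle markers, at 610, 744 and 506 FPKM, were lowest in CSF1 replicate 8. Tnf divided by the summed FPKM of the 16 markers was 0.0369, 0.0274 and 0.0200 in CSF1 libraries 3, 5 and 8, against 0.0343, 0.0368 and 0.0223 in WT libraries 3, 5 and 8, and these ranges overlapped. For Tnfrsf1b this ratio was 0.0144, 0.0140 and 0.0113 in CSF1, against 0.00858, 0.0304 and 0.0150 in WT, also overlapping. For Tnfsf9 it was 0.00601 to 0.0102 in CSF1 and 0.0101 to 0.0240 in WT. For Fas the ratio was 0.0125 to 0.0383 in CSF1 and 0.0421 to 0.271 in WT, and for Tnfrsf1a 0.0216 to 0.0615 in CSF1 and 0.265 to 0.699 in WT. In WT libraries Tnfrsf12a alone was at 2.54 to 9.13 times the summed macrophage markers, against 0.304 to 0.841 times in CSF1. The genes that made up the marker sum differed in weight between the groups. Lyz2 was at 337 to 1371 FPKM in CSF1 and 6.69 to 61.6 FPKM in WT. Mertk, which fell, was at 1.01 to 3.23 FPKM in CSF1 and 3.63 to 6.23 FPKM in WT. The ratios depend on this mix. The part of macrophage RNA in the changes of the members was not tested.

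**Figure D3:**
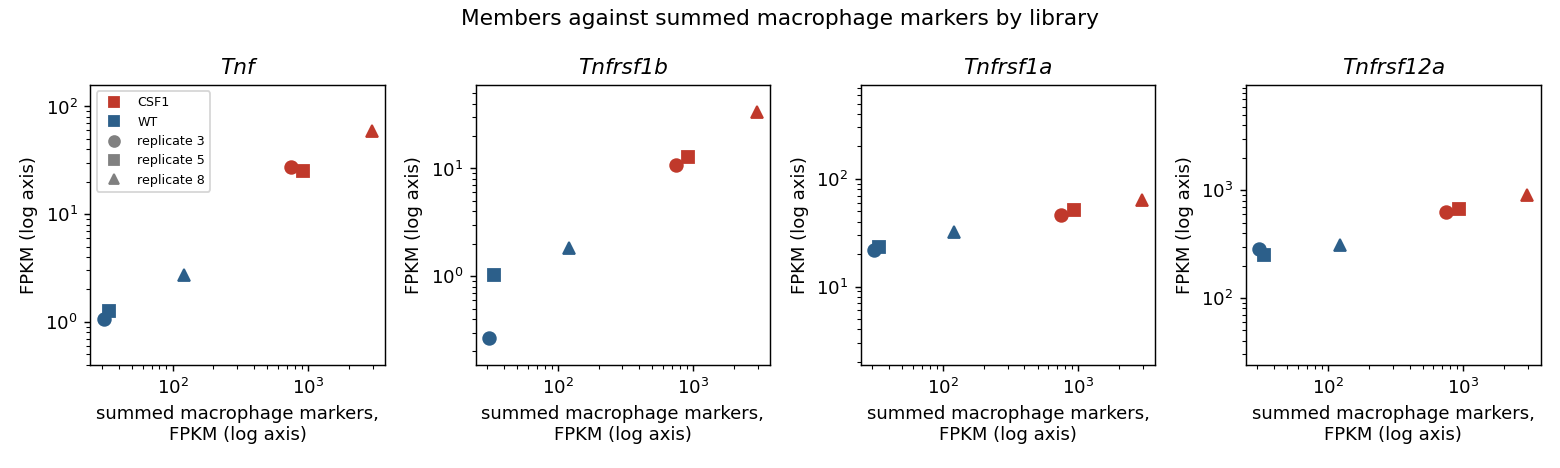
FPKM of Tnf, Tnfrsf1b, Tnfrsf1a and Tnfrsf12a against the summed FPKM of 16 macrophage markers in each library, both on log axes, with the vertical axes spanning the same fold range. Tnf runs between 1.07 and 58.9 FPKM while Tnfrsf1a spans 21.7 to 63.7 FPKM over the same libraries.

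The genes nearest to a member in pattern were those with the smallest root mean square difference of centred log2(FPKM + 1) over the 6 libraries, among all tested genes. For Tnf these were Trf (0.10), which encodes the iron carrier transferrin, Cd44 (0.18), a hyaluronan receptor gene, and the chemokine gene Cxcl1 (0.18). For Tnfrsf1a they were Ccdc64b (0.05), the keratin gene Krt19 (0.05) and Sh3bgrl (0.07). For Tnfrsf1b they were Slc11a1 (0.12), which encodes a metal transporter of phagocytes, the keratin gene Krt17 (0.14) and Gngt2 (0.19). Krt19, an epithelial gene, was at 2521, 2682 and 3470 FPKM in CSF1 libraries 3, 5 and 8, against 1279, 1374 and 1922 FPKM in WT libraries 3, 5 and 8.

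Of the other 36 ligand and receptor genes of the family, 12 were tested. Among them 6 rose, none fell and 6 missed the threshold, where 24.9% of all tested genes were higher and 7.47% lower. Of 13 ligand genes, 3 were tested and 2 rose, and of 23 receptor genes, 9 were tested and 4 rose. Over all listed genes, tested or not, the median log2 change was 0.31 for the 13 ligands and 0.61 for the 23 receptors. For all genes with no filter on low values it was 0.09. Of the listed genes, 5 ligands and 4 receptors were at 0 in every WT library and could not fall. Of the 12 tested genes, 5 entered only through their CSF1 levels, so these counts are a description. With quantile normalization 3 of the 12 passed as higher, where 1694 of 10951 tested genes were higher and 2362 lower. With no filter on low values 9 of the 36 rose and 1, Edar, fell, where 2910 of 17920 genes were higher and 745 lower. Edar, named after its values were seen, encodes the ectodysplasin receptor of skin appendages. It was at 0.0484, 0.00576 and 0 FPKM in CSF1, against 0.280, 0.297 and 0.467 FPKM in WT.

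Tnfsf13, which encodes APRIL, a survival factor of plasma cells, was at 20.9, 16.3 and 17.4 FPKM in CSF1, against 6.21, 9.28 and 9.16 FPKM in WT (log2 change 1.07 ± 0.19, limma adjusted p = 0.00299). Its exons overlap those of the read-through gene Tnfsfm13, so its reads can be split between both. Ltb, which encodes lymphotoxin beta, a membrane ligand made mainly by lymphocytes, was at 1.99, 1.29 and 5.98 FPKM in CSF1, against 0.0711, 0.130 and 0.167 FPKM in WT (log2 change 1.69, limma adjusted p = 0.0105). It did not pass with quantile normalization (limma adjusted p = 0.11) or without both libraries numbered 3 (0.0567). Without CSF1 library 8 the CSF1 mean of Ltb was 1.64 FPKM, against 3.08 FPKM with it, and the gene was then below the limit for testing. Cd40, the costimulatory receptor of antigen-presenting cells, was at 2.10, 5.54 and 23.4 FPKM in CSF1, against 0.299, 0.186 and 0.0266 FPKM in WT (log2 change 2.76 ± 0.63, limma adjusted p = 0.0102). CSF1 replicate 8 was far above the others, and the log2 change without it was 1.95. Cd40 did not pass when its most abundant transcript stood for the gene (limma adjusted p = 0.0947) or without both libraries numbered 5 (0.055).

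Tnfrsf18, which encodes GITR, a costimulatory receptor of T cells, was at 5.43, 4.30 and 7.87 FPKM in CSF1, against 0.672, 1.19 and 1.16 FPKM in WT (log2 change 1.75, limma adjusted p = 0.000869). An exon of Tnfrsf18 overlaps the antisense gene Gm16008 by 253 bases, and reads of the shared stretch cannot be assigned. Tnfrsf23, a mouse decoy receptor of TRAIL, was at 2.07, 2.23 and 4.59 FPKM in CSF1, against 0.782, 0.771 and 0.551 FPKM in WT (log2 change 1.17, limma adjusted p = 0.0106). It did not pass with quantile normalization (limma adjusted p = 0.128). An exon of Tnfrsf23 overlaps the antisense gene E230032D23Rik by 99 bases. Tnfrsf11a, named as the signalling receptor of RANKL after its values were seen, was at 4.18, 2.42 and 4.15 FPKM in CSF1, against 1.01, 1.28 and 2.03 FPKM in WT (log2 change 0.91, limma adjusted p = 0.0239). Its call was lost without CSF1 replicate 3 or 8 and without WT replicate 3 or 5 (limma adjusted p = 0.0601 to 0.0788), with no filter on low values (0.0608) and with quantile normalization (0.199). The call was also lost without both libraries numbered 3 (limma adjusted p = 0.189) or 5 (0.0546).

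Abundant receptor genes of the family did not all pass. Tnfrsf21, which encodes the death receptor DR6, was at 108, 93.3 and 117 FPKM in CSF1, against 64.4, 60.9 and 101 FPKM in WT, and the groups overlapped (log2 change 0.52, limma adjusted p = 0.0836). Ltbr, the lymphotoxin beta receptor gene, was at 28.5, 31.4 and 42.7 FPKM in CSF1, against 16.2, 21.3 and 27.6 FPKM in WT (log2 change 0.64, limma adjusted p = 0.0564). With the replicate number as a block, both passed (limma adjusted p = 0.0301 for Tnfrsf21 and 0.00935 for Ltbr). Both also passed without WT replicate 8 (limma adjusted p = 0.0109 and 0.0313). These genes were named after their values were seen.

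**Figure D4:**
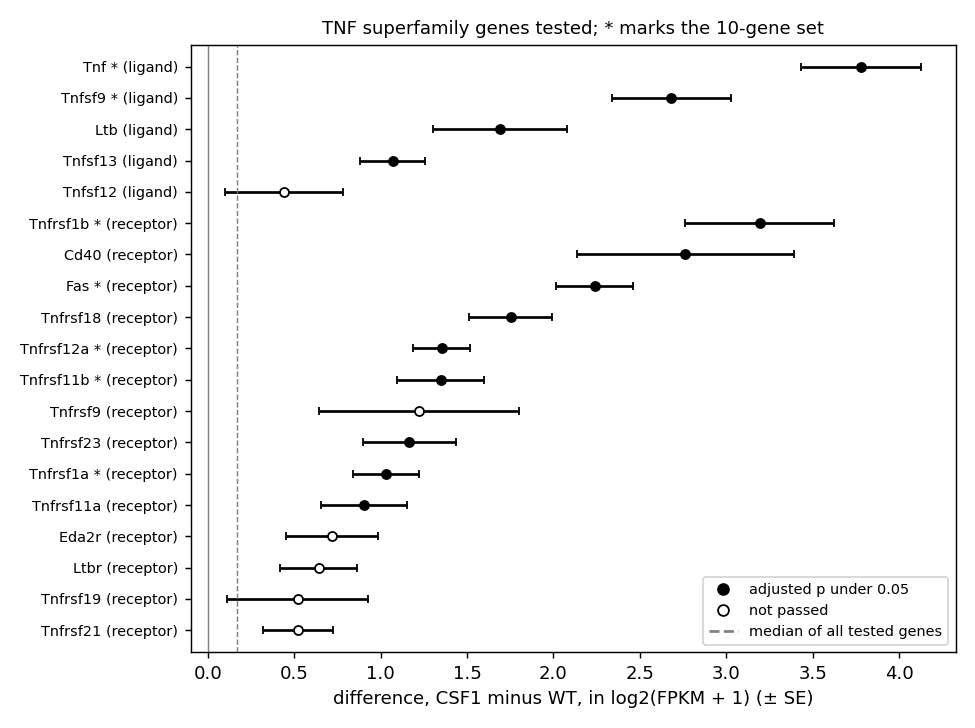
Log2 change (CSF1 minus WT, ± SE) of the 19 tested ligand and receptor genes of the family, with ligands above receptors, an asterisk for the 10-gene set and filled points for an adjusted p under 0.05. Tnf (3.78) and Tnfrsf1b (3.19) lie farthest right, and the dashed line marks the median of all tested genes, 0.17.

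Several family genes lie side by side in the genome, and some neighbours differed widely in level. Lta and Ltb lie 1158 and 3062 bases from Tnf on chromosome 17. Lta was at 0.307 FPKM or less in every library, and Ltb at 5.98 FPKM or less, where Tnf reached 58.9 FPKM. Cd70 and Tnfsf14 lie 38240 and 81717 bases from Tnfsf9 and were listed at 0 in every WT library. Ltbr lies 35853 bases from Tnfrsf1a, and both had at least 16.2 FPKM in each library. Tnfrsf8 lies 22106 bases from Tnfrsf1b and was listed at 0 in 5 of the 6 libraries.

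The signalling proteins that act below these receptors were described by a list of 30 genes, all of them tested. The list was chosen with earlier results of these data known, so its counts and median are a description. In CSF1 libraries 20 rose, 0 fell and 10 did not pass, where 24.9% of all tested genes were higher and 7.47% lower. The median log2 change of the list was 0.90, against 0.17 for all tested genes. Ripk3, Traf1 and Traf5 had WT means under 1 FPKM and were tested only through their CSF1 levels. Without both libraries numbered 5, 12 rose, where 1519 of all 10935 tested genes were higher and 341 lower. With median-ratio scaling 17 rose, where 2102 of 10922 tested genes were higher and 1675 lower. With quantile normalization 13 rose and 1 fell, where 1694 of 10951 tested genes were higher and 2362 lower. Among inhibitors, Tnfaip3, which encodes the ubiquitin-editing NF-kB inhibitor A20, was at 28.7, 31.3 and 40.3 FPKM in CSF1 libraries 3, 5 and 8, against 1.53, 4.17 and 4.43 FPKM in WT libraries 3, 5 and 8. That was the largest log2 change of the list, 3.04 ± 0.30 (limma adjusted p = 0.000157). Tnip1, which encodes a partner of A20, rose to 20.9 ± 8.85 FPKM in CSF1, against 5.25 ± 1.495 FPKM in WT (limma adjusted p = 0.00274). Tank, which encodes a TRAF-binding regulator, rose to 21.7 ± 6.74 FPKM in CSF1, against 8.75 ± 1.71 FPKM in WT. Tnip2, another A20 partner, was called higher (log2 change 0.56, limma adjusted p = 0.0418), but the adjusted p was above the threshold without any 1 of 4 libraries (CSF1 replicate 3 or 8, WT replicate 5 or 8), at 0.109 to 0.143, and with median-ratio scaling (0.215) or quantile normalization (0.231). Tnip2 also did not pass with no filter (limma adjusted p = 0.0731), no intensity trend (0.0606) or without both libraries of any 1 number (0.0797 to 0.199).

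Of the list's death adaptor genes, neither Fadd (log2 change 0.35, limma adjusted p = 0.304) nor Tradd (log2 change 0.31, limma adjusted p = 0.246) passed, and the groups overlapped in both; they were named after their values were seen. Ripk3, which encodes the kinase that starts necroptosis, was at 5.19, 7.22 and 15.2 FPKM in CSF1, against 0.493, 0.570 and 0.556 FPKM in WT (log2 change 2.61 ± 0.33, limma adjusted p = 0.000585). Mlkl, named after its values were seen, encodes the membrane-rupturing target of that kinase and rose to 4.34 ± 0.843 FPKM in CSF1, against 1.49 ± 0.114 FPKM in WT (limma adjusted p = 0.00288). Casp8, the initiator caspase gene of death receptors, was at 24.3, 21.6 and 27.3 FPKM in CSF1, against 8.34, 9.35 and 9.22 FPKM in WT (log2 change 1.34 ± 0.15, limma adjusted p = 0.000258). Ripk1, the kinase gene shared by survival and death signalling, rose to 11.1 ± 1.33 FPKM in CSF1, against 5.50 ± 0.584 FPKM in WT, and its exons overlap those of the opposite-strand gene Serpinb6a. Cflar, which encodes the caspase-8 inhibitor FLIP, had a log2 change of 0.61 (limma adjusted p = 0.0155), and it did not pass without CSF1 replicate 5 (0.0562), without both libraries of any 1 number (0.0661 to 0.0943) or with quantile normalization (0.121).

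The inhibitor of apoptosis gene Birc3, an NF-kB target, was at 45.6, 48.0 and 64.0 FPKM in CSF1, against 20.7, 21.8 and 24.2 FPKM in WT (log2 change 1.19 ± 0.16, limma adjusted p = 0.000832). Its relative Birc2 had a log2 change of 0.46 (limma adjusted p = 0.0317), a call that was lost with both other scalings and without any 1 library other than CSF1 replicate 8 (limma adjusted p = 0.0507 to 0.0976). The Birc2 call was also lost with the highest transcript (limma adjusted p = 0.221) and without both libraries of any 1 number (0.0817 to 0.231). Rnf31, the catalytic subunit gene of the linear ubiquitin ligase, rose to 15.2 ± 5.27 FPKM in CSF1, against 5.65 ± 0.867 FPKM in WT. An exon of Rnf31 overlaps one of Irf9. Of the adaptor genes, Traf1 had the largest change, at 2.87, 3.27 and 10.2 FPKM in CSF1, against 0.282, 0.690 and 0.906 FPKM in WT (log2 change 1.83, limma adjusted p = 0.00844). Its mean was 8.72-fold higher in CSF1, and 4.91-fold without CSF1 library 8. Traf2 and Traf4 rose by 0.97 and 0.96 in log2 units (limma adjusted p = 0.00544 and 0.0107), and neither passed without both libraries numbered 5 (0.0749 and 0.11). Traf5, named after its values were seen, did not pass (limma adjusted p = 0.0604) and passed with the replicate number as a block (0.0303). Adam17, which encodes the protease that sheds TNF and its receptors and was named after its values were seen, was at 6.63, 8.42 and 9.41 FPKM in CSF1, against 1.59, 1.68 and 2.86 FPKM in WT (limma adjusted p = 0.000866). Its exons overlap those of the opposite-strand gene Iah1. Tab2, an adaptor gene of the kinase TAK1 that was also named after its values were seen, alone of the 30 had a log2 change below 0, at -0.35 (limma adjusted p = 0.212). With quantile normalization, under which the median log2 change of all genes was -0.16, Tab2 passed as lower (-0.71, limma adjusted p = 0.0243).

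**Figure D5:**
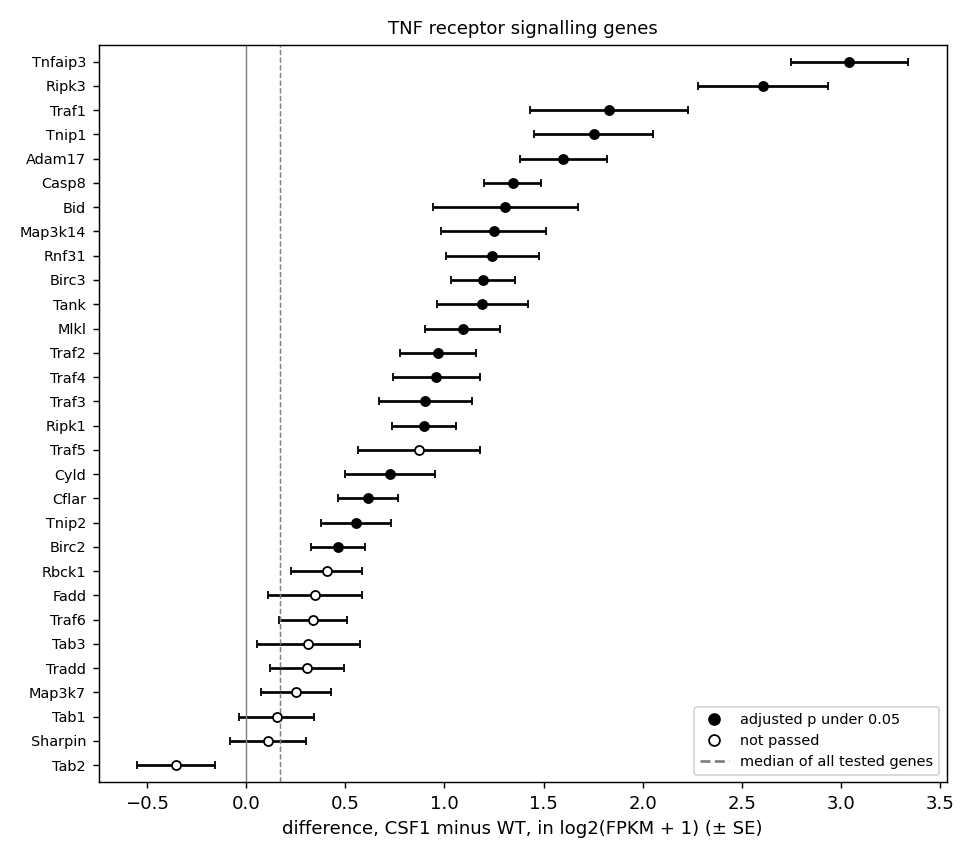
Log2 change (CSF1 minus WT, ± SE) of the 30 TNF receptor signalling genes, ordered by size, with filled points for an adjusted p under 0.05. Tnfaip3 (3.04) and Ripk3 (2.61) lie farthest right, Tab2 (-0.35) lies left of 0, and the dashed line marks the median of all tested genes, 0.17.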

How the data were processed

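RNA of sorted mouse prostate luminal cells was measured in 3 CSF1 and 3 WT libraries. Per the labels' protocols, the SMART-Seq v4 kit gave the cDNA that was sequenced on a HiSeq 2500. Per the submitters' processing notes, bcl2fastq 1.8.3, TopHat and Cufflinks were used with mm10 (the last 2 tools with no version given). The authors deposited FPKM per transcript with the bounds of Cufflinks' interval, and a coverage signal, the mean read depth of a transcript. No fragment totals are given, so the depth per library is known only in relative terms.

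FPKM was summed per gene symbol. The 9 genes with a status other than OK in any library were left out, and no gene of the lists was among them. log2(FPKM + 1) was fitted with limma 3.58.1 (R 4.3.3, with the package data.table, version 1.17.8) with an intensity trend, two-sided, at an adjusted p of 0.05, with no block and no added scaling. The fit was tested on simulated data. By unadjusted p under 0.05, 4667 genes passed. Same-numbered libraries deviated together from their group means (correlation over genes 0.257 for number 3, 0.111 for number 5 and 0.182 for number 8). The numbers are therefore taken to pair them in the replicate block, while the main fit left the pairing out.

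The members and lists were chosen with earlier results of these data known. Named genes were the members, Csf1, the 3 called genes of each family or signalling list with the largest change, called genes of at least 10 FPKM in a group, and the nearest genes in pattern; marker lists are given as counts and sums. Alternatives were pseudocounts of 0.1 and 5, no filter, median-ratio scaling, quantile normalization, the highest transcript, a replicate block, no trend, and each library left out. Leaving out both libraries of a number was added after seeing the data.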

Additional observations from a re-analysis of the deposited data

How the results depend on the processing

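Over all alternatives run, all 7 tested members kept a positive change, and all 7 calls held in each of them except Tnfrsf11b with quantile normalization and Tnfrsf1a without both libraries numbered 5. Leaving out 1 library at a time kept 7 called. Other scalings moved the balance of all genes: 77% of called genes were higher as deposited, 55.7% with median-ratio scaling (median log2 change -0.01) and 41.8% with quantile normalization (-0.16). The number of genes called, 3549 of 10951 tested, was 1860 of 10935 without both libraries numbered 5 and 3655 of 17920 with no filter. It was 3777 of 10922 with median-ratio scaling and 4056 of 10951 with quantile normalization. The 6 calls among other family genes were 10 with no filter and 3 with quantile normalization. The 20 signalling calls were 17 with median-ratio scaling, 14 with quantile normalization and 12 without both libraries numbered 5. With a pseudocount of 0.1 the differences in log2 ratio were 3.11 for Tnfrsf1b to Tnfrsf1a, -2.12 for Tnfsf11 to Tnfrsf11b and 1.36 for Tnfsf10 to Tnfrsf10b, and with a pseudocount of 5 the first 2 were 0.95 and -0.49. Ltb gave no value without CSF1 library 8, or without both libraries numbered 8, because it was then below the limit for testing. Leaving out 1 library gave 2531 to 3156 genes called, 5 to 9 other family genes, 16 to 18 signalling genes and ratio differences of 1.82 to 2.36, -1.44 to -1.03 and 0.01 to 0.34. With the replicate block 3773 genes, 7 members, 8 other family genes and 21 signalling genes were called, and among named genes only Ltbr, Tnfrsf21 and Traf5 changed their call.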
